A study of Mus musculus with 17 samples.

Results

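Accessible chromatin at genes named for mitosis and DNA replication was described in B cells and plasma cells of mice with and without Dnmt3a and Dnmt3b, the enzymes that set new DNA methylation. Members were chosen by gene name alone: a region belonged when the start nearest to it carried a Mcm, Orc, Cdc, Ccna, Ccnb, Ccne, Plk, Aurk, Bub, Cenp or Kif name and lay within 10000 bp. The rule took in 184 of the 66177 regions in the table, assigned to 104 of its 15301 genes, of which 100 regions lay within 1000 bp of the start (91 genes) and 84 lay farther away (56 genes). The same names at any distance would have given 365 regions. The name does not always fit the label. Of the 104 genes, 58 (91 regions) act in replication, the cell cycle engine or mitosis and are called the cell cycle genes here, whereas 46 (93 regions) have other or mixed roles, among them motors of vesicle transport, binding partners of the GTPase Cdc42 and the kinases Plk2, Plk3 and Plk5. Just inside the distance limit, regions of Mcm5 (9982 bp) and Kif2a (10000 bp) held means of 5.75 and 0.763 RPPM in nB of control mice and 8.35 and 0.44 in their GCB, and just outside it, regions of Kif21b (10030 bp) and Orc3 (10034 bp) held 4.18 and 1.57 in nB and 6.12 and 2.26 in GCB.

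The assay was ATAC-seq, in which a transposase cuts open chromatin, and values are RPPM, the reads in a region per 1000000 reads in all regions of that library. Naive B cells (nB, B220+ GL7- Fas-) came from lymph nodes of unimmunized male mice. Germinal center B cells (GCB, B220+ GL7+ Fas+ and binding phycoerythrin, PE) came from lymph nodes, and bone marrow plasma cells (BMPC, CD138+) from bone marrow, 30 days after immunization with PE in complete Freund's adjuvant. Dnmt3-deficient mice (KO) and their Dnmt3-sufficient littermates (C) both had the floxed alleles Dnmt3a fl/fl and Dnmt3b fl/fl, and KO mice also carried a Cre active in the B lineage, so Cre itself accompanied KO. Mice were 8 to 12 weeks old. There were 3 C and 2 KO libraries of nB, 2 C and 4 KO of GCB, each from 2 pooled mice of 1 sex, and 3 C and 2 KO of BMPC, all from females. The GCB pools were named F2 and M1 in C and F1, F2, F3 and M1 in KO. By these names, sex was not balanced between the genotypes in GCB. A further sample labelled as KO BMPC has no column in the table and was not analysed here.

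Libraries held 907959 to 8232313 reads in regions, fewest in GCB (907959 to 2280954), so 3 reads, taken as the floor of detection, were worth 0.364 to 3.30 RPPM. The libraries carried no molecular identifiers, so 1 molecule can give several reads, and the floor covers counting error only. GCB libraries also had 7.43% to 10.1% of reads on chrM against 2.56% to 4.59% elsewhere, and 44.6% to 48.8% of reads within 1000 bp of a start against 53.6% to 57.3%. Tissue, sex and depth differed between the cell types and cannot be told apart from them. The starts of markers followed the labels in part: Tnfrsf17 held 19.995 RPPM in C BMPC against 0.392 in nB, and Fcer2a held 42.4 in nB against 1.20 in BMPC, whereas Bcl6 (20.01 in GCB) and Irf4 (44.1 in BMPC) were highest in nB. The GCB markers S1pr2 and Fas were highest in BMPC, at 39.3 and 31.2 RPPM in C against 26.2 and 20.6 in GCB. Summed over the nearest regions of 5 markers, nB markers held 217 RPPM in C nB, 92.3 in GCB and 95.1 in BMPC. In the same order, GCB markers held 85.1, 128 and 107, and BMPC markers 165, 149 and 239. Among markers of other cells, regions existed for 2 of 5 T cell, 3 of 5 myeloid and 3 of 4 erythroid genes, with summed levels of 14.4 to 70.4, 10.4 to 18.3 and 43.0 to 68.2 RPPM over the 6 group means, and Cd3g, Cd8a, Thy1, Lyz2, Mpo and Gata1 had no region within 10000 bp. From C to KO GCB, the erythroid sum went from 43.0 to 62.7 RPPM. The myeloid sum went from 11.5 to 18.3 and the T cell sum from 14.4 to 16.9. Within the erythroid sum, Hbb-b1 went from 1.13 to 17.1 and Klf1 from 32.6 to 34.5. Of the T cell sum in C GCB, 13.7 RPPM lay at Cd3d. The part of such cells in the results, and in comparisons of KO with C, was not tested.

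A resting B cell leaves quiescence when the origin recognition complex (Orc proteins), Cdc6 and the Mcm helicase license origins, and Cdc7 and Cdc45 help fire them. Cyclins E and A drive replication, cyclins A and B and the Cdc25 phosphatases drive entry into mitosis, and Plk1, Aurora kinases, Bub proteins, centromere proteins and motor kinesins then align and part the chromosomes until Cdc20 and the anaphase-promoting complex end it. Many of these promoters carry CCAAT boxes bound by NF-Y, E2F sites or the cell cycle homology region (CHR), through which the DREAM complex and its relatives silence them in resting cells. Germinal center B cells divide fast, naive B cells rest and bone marrow plasma cells have mostly left the cycle.

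Promoters of 8 genes that act at successive steps are shown first, and their start regions were open in all 3 cell types. Each sequence runs 5′ to 3′ on the gene's strand over the 150 bases before the annotated start (mm9). Capitals mark matches on either strand to CCAAT, to the CHR letters TTTGAA or TTCGAA, or to the E2F letters GCGGGAAA, GCGCGAAA or GCGCCAAA. All 8 windows hold matches and are not a typical sample of the core genes. The windows of Orc4, Cdc7, Plk4, Cdc16, Cdc26, Kif2c and Kif20b, among others, hold none.
Mcm5, chr8:77633277-77633426, plus strand: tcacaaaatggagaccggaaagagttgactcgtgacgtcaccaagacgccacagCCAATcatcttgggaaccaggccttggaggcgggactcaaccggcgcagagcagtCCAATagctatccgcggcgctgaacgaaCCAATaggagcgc
Mcm6, chr1:130256234-130256383, minus strand: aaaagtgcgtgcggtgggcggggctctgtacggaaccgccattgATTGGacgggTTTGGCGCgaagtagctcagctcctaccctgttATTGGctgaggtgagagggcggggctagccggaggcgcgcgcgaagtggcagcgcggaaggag
Cdc25a, chr9:109777933-109778082, plus strand: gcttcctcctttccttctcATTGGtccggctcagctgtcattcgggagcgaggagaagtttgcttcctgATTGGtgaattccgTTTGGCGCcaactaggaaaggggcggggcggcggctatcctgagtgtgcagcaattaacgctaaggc
Ccnb2, chr9:70269362-70269511, minus strand: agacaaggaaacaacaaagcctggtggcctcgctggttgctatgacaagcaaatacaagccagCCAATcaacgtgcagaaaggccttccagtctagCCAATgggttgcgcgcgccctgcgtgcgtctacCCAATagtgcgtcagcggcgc
Aurkb, chr11:68858995-68859144, plus strand: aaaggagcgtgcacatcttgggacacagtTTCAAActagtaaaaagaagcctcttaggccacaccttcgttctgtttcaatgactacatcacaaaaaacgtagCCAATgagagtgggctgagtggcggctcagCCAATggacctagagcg
Cdc20, chr4:118109949-118110098, minus strand: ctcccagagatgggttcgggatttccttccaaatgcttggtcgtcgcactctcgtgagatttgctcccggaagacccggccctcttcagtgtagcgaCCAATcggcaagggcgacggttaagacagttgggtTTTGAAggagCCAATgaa
Cenpm, chr15:82074767-82074916, minus strand: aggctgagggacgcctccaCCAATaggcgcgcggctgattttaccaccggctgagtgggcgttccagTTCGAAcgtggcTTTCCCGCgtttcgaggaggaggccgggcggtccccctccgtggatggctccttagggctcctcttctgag
Kif22, chr7:134185935-134186084, minus strand: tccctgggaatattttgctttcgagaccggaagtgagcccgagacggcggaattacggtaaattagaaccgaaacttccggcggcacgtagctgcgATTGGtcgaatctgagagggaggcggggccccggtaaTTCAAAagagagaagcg

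Mcm5 and Ccnb2 each held 3 CCAAT boxes in this window, beginning 96, 41 and 13 bases before the start in Mcm5 and 87, 54 and 21 bases before it in Ccnb2. The promoters of Cdc23, Cdc25c and Kif20a were not included in the count. Over 41 other core genes whose start lay in a region, 29 held a CCAAT box in these 150 bases and 15 held 2 or more. A CHR match was held by 7 and an E2F match by 6. Across whole regions within 1000 bp of a start, CCAAT occurred in 50 of 57 regions of the cell cycle genes (87.7%), 28 of 43 regions of the other members (65.1%) and 58.7% of all 15009 such regions. The CHR letters occurred in 64.9%, 39.5% and 37.2%, and the E2F letters in 21.1%, 4.65% and 7.61%. Median region widths were alike, at 1020, 1100 and 938 bp. Base composition was not matched, with a median GC content of 55.9%, 62.4% and 58.5%, and its part in these shares was not tested. E2F matches were concentrated in helicase and origin genes, at 8 of 14 start regions (57.1%), and none was found in the 8 regions of mitotic kinases and checkpoint genes, the 5 of the anaphase-promoting complex or the 7 of mitotic kinesins, although all 7 of the latter held the CHR letters. In fixed windows of 300 bases around RefSeq starts (GRCm38.p6), the shares for 53 matched cell cycle genes were 69.8%, 47.2% and 20.8%, against 41.1%, 21.7% and 2.12% of 27025 genes. A match is a description of letters, not a measured site.

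The starts of cell cycle genes differed little between nB, GCB and BMPC. A region was called when limma gave an adjusted p of at most 0.01 over all 66177 regions and a change of at least 2-fold on the scale of RPPM + 1. Between any 2 of the C cell types, 2 of 57 regions within 1000 bp of a cell cycle start were called (3.51%), whereas 13 of 43 of the other members (30.2%) and 4715 of all 15009 regions near starts (31.4%) were. The 2 were a region 617 bp downstream of the Cdc25a start and the start of Cenpw, the latter lost without the third C BMPC library or the second C GCB library. Without the limit on the fold, 23 of the 57 (40.4%) had an adjusted p of at most 0.01, against 62.8% of all regions near starts, so the group was not without differences but its differences were small. The highest C group mean exceeded the lowest by a median of 1.28-fold at cell cycle starts (with 1 RPPM added), and by less than 2-fold in 55 of 57. The median was 1.64-fold for all regions near starts, of which 67.3% stayed under 2-fold. In KO cells the median at cell cycle starts was 1.35-fold. Whether a region is open in fewer cells or less open in each cell cannot be told apart in these bulk libraries.

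**Figure D1:**
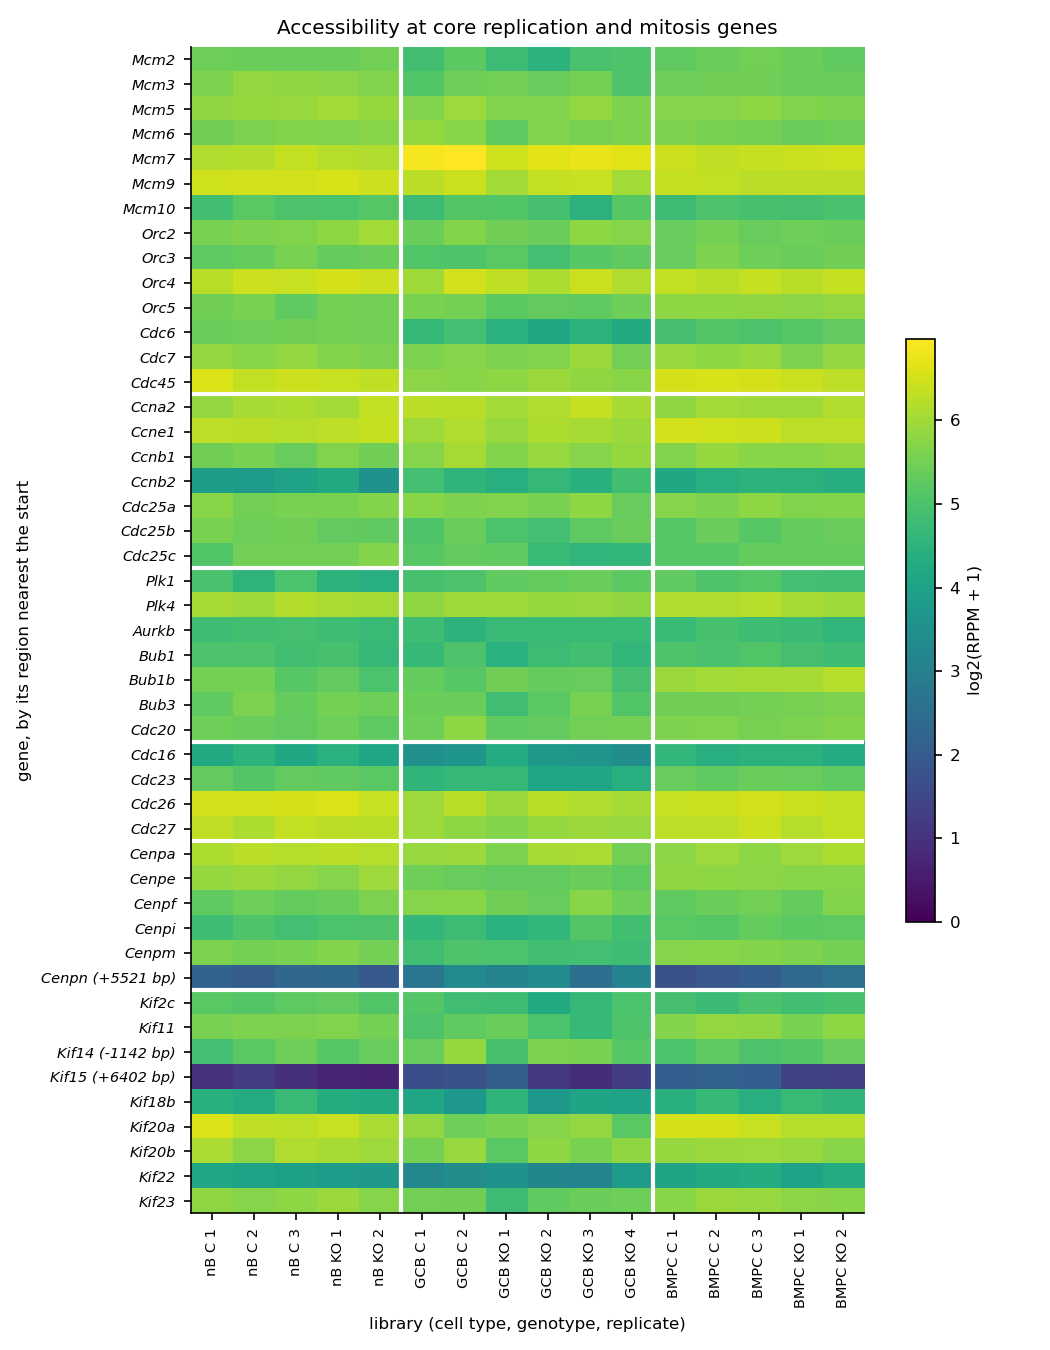
Accessibility of the region nearest the start of 47 core replication and mitosis genes (rows) in the 16 libraries (columns), coloured by log2(RPPM + 1). Most rows keep 1 colour across nB, GCB and BMPC of both genotypes, and the darkest rows are Kif15 and Cenpn, whose nearest region is not at the start.

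These starts were also more open than most. Per kb of region, cell cycle starts held a median of 44.1 RPPM in nB, 39.4 in GCB and 44.1 in BMPC of C mice, against 31.2, 25.6 and 34.0 for all regions near starts. Strongly open starts were called less often in the whole table, so shares were also read within levels. Among regions near starts with at least 40 RPPM per kb, 1 of 36 cell cycle regions was called (2.78%) against 8.37% of all, and between 20 and 40 RPPM per kb 0 of 16 were against 29.7% of all. Below 20 RPPM per kb, 1 of 5 was called against 56.0%.

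Farther from the start the picture was another. Of the 34 regions of cell cycle genes between 1001 and 10000 bp away, 17 were called between some pair of C cell types, as were 27 of 50 of the other members (54.0%) and 53.7% of all 16158 regions at that distance. These shares lie near each other, and nothing particular to the members is read from them.

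**Figure D2:**
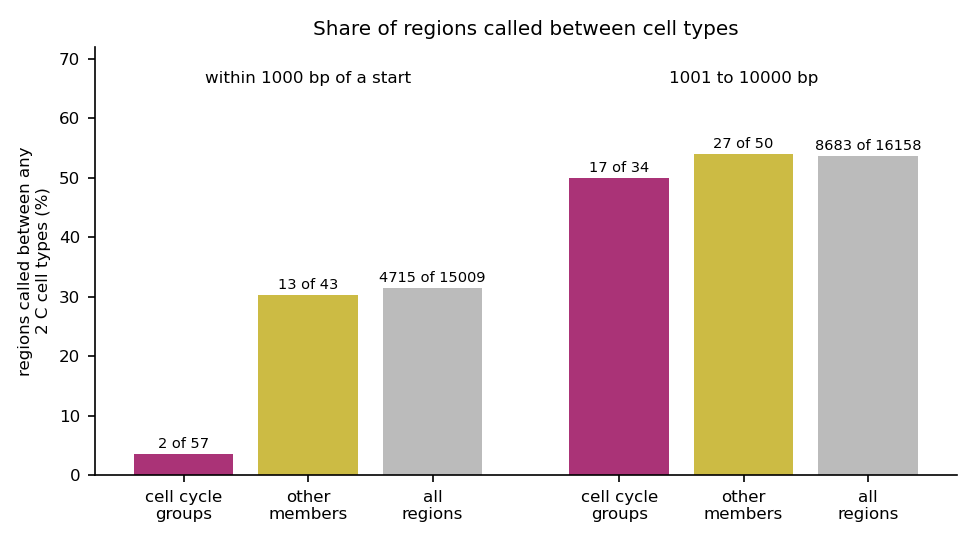
Share of regions called between any 2 C cell types (bars, percent), within 1000 bp of a start (left) and from 1001 to 10000 bp (right), for cell cycle members, other members and all regions of the table. The bar of the cell cycle members near starts stands at 3.51% beside 31.4% for all regions near starts, and the bars of distant regions stand at 17 of 34, 54.0% and 53.7%.

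From nB to GCB in C mice, 25 members were called higher and 10 lower, where 14.2% and 8.47% of all regions were called higher and lower. The median log2 change of the members was -0.08. From nB to BMPC, 23 rose and 13 fell (18.0% and 20.1% of all regions), with a median of 0.14. From GCB to BMPC, 10 rose and 18 fell (11.3% and 19.1% of all regions), with a median of 0.19. The 3 comparisons share their libraries pairwise. Scaling to the reads near starts raised the median of all regions from 0.05 to 0.21 from nB to GCB and gave 27 members up and 5 down. The 10 that fell from nB to GCB became 5 without the second C GCB library and 6 without the first or the third C nB library. From GCB to BMPC that scaling lowered the median of all regions from -0.06 to -0.28 and gave 6 up and 23 down. In the latter comparison TMM scaling gave 15 up and 17 down and quantile normalization 16 up and 14 down, so its balance depends on the scale.

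**Figure D3:**
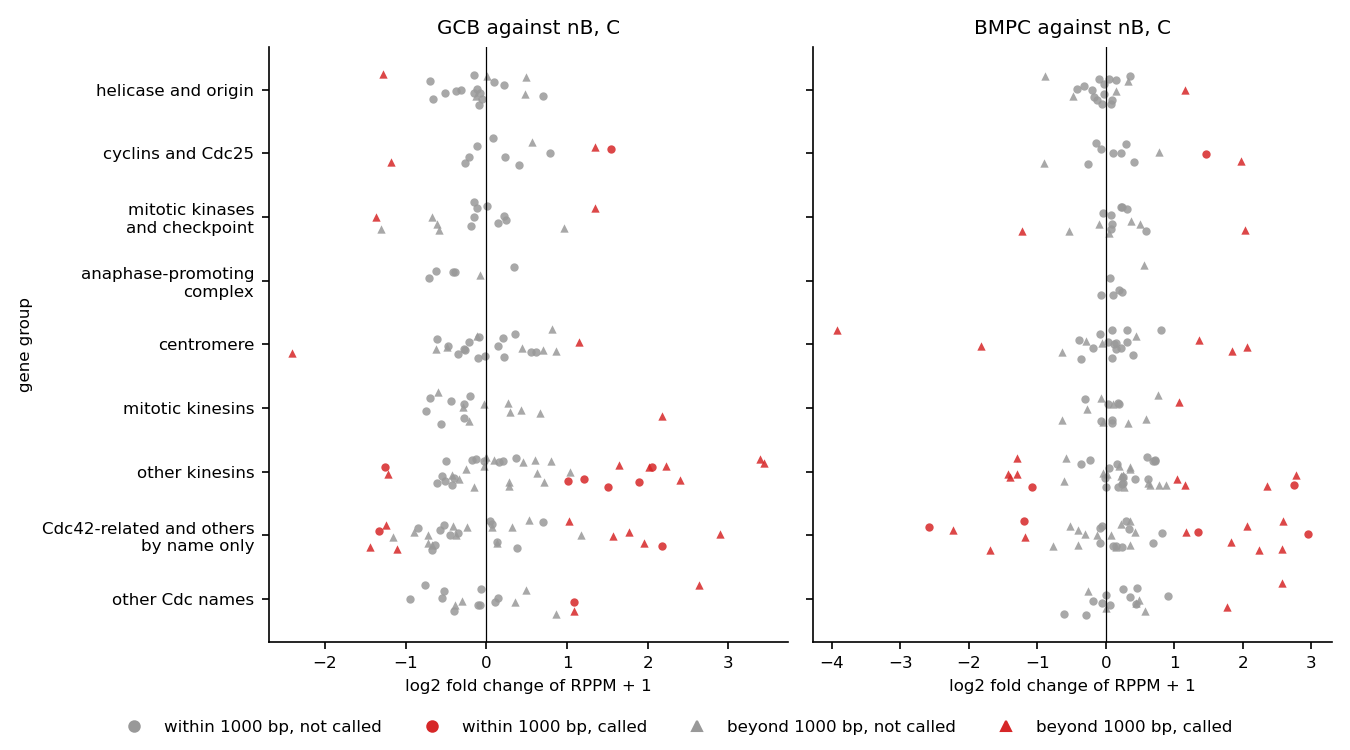
Log2 fold change of RPPM + 1 of every member from nB to GCB (left) and from nB to BMPC (right) in C mice, by gene group (rows). Circles are regions within 1000 bp of the start, triangles lie farther away, and red marks a called change. Circles of the 6 cell cycle groups gather near 0, and the called changes are mostly triangles or belong to the other kinesins and the members with another role.

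Over all regions the share called between any 2 C cell types was 51.8%. It was 31.4% within 1000 bp of a start and 53.7% from there to 10000 bp. The gene groups below differ in how many of their regions lie near starts. Helicase and origin genes had 19 regions at 14 genes, of which 2 were called, neither at a start. The start of Mcm5, a helicase subunit, held 55.3, 57.5 and 58.4 RPPM in nB, 49.3 and 60.9 in GCB and 51.6, 50.9 and 54.0 in BMPC, where GCB overlapped both others and nB lay above BMPC by less than 2-fold. That of Orc2, of the origin recognition complex, held 46.3, 48.0 and 49.5, then 40.5 and 50.6, then 39.9, 45.2 and 40.2. Mcm7, another subunit whose start is shared with Ap4m1, had 70.2, 71.6 and 79.8 RPPM in nB, 116 and 125 in GCB and 87.0, 78.8 and 81.3 in BMPC. Both GCB libraries lay above all others, by a log2 change of 0.70 ± 0.10 (SE) from nB (limma adjusted p = 2.4e-06), which is under 2-fold. Cdc45, which joins the helicase when origins fire and shares its start with Ufd1, moved the other way: 94.8, 80.4 and 86.4 RPPM in nB, 53.7 and 52.5 in GCB and 92.1, 93.6 and 92.2 in BMPC (nB to GCB log2 change -0.70 ± 0.10, adjusted p = 3.7e-06). The start of the licensing factor Cdc6 was likewise lower in GCB (24.2 and 28.6) than in nB (41.2, 42.0 and 43.5), by -0.66 ± 0.15 with an adjusted p of 0.00062. The median change of all regions near starts from nB to GCB was -0.17. The called regions were 1738 bp into Mcm6, which rose from 9.74, 7.72 and 7.63 RPPM in nB to 18.5, 20.3 and 20.4 in BMPC (1.15 ± 0.25, adjusted p = 0.00029), and 9373 bp into Cdc6, which fell from 5.60, 4.90 and 5.40 in nB to 1.32 and 1.87 in GCB. The latter (-1.29 ± 0.39, adjusted p = 0.0084) lost its call when any of 10 single libraries was left out, among them each nB and GCB library of C.

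Among cyclins and Cdc25 phosphatases, 4 of 11 regions at 7 genes were called. Ccnb1, the cyclin of mitotic entry, had 43.1, 46.5 and 40.0 RPPM at its start in nB, 51.5 and 64.6 in GCB and 49.0, 58.2 and 52.0 in BMPC, with overlap between GCB and BMPC and a nB to GCB change of 0.41 ± 0.13 that missed the limit (adjusted p = 0.011). Ccnb2, with its 3 CCAAT boxes, was the least open start of the group, at 14.1, 13.6 and 15.3 RPPM in nB, 28.6 and 22.5 in GCB and 16.9, 19.9 and 21.8 in BMPC. Both GCB libraries were higher than those of nB (0.78 ± 0.20, adjusted p = 0.0025, under 2-fold). A second Ccnb2 region 4819 bp downstream of the start was called higher in GCB (6.60 and 6.09) than in nB (2.44, 2.26 and 1.12), a call lost without the first C GCB library (1.30). The phosphatase gene Cdc25a showed a flat start, with 51.9, 44.3 and 47.1 RPPM in nB, 52.8 and 48.2 in GCB and 51.1, 48.4 and 54.8 in BMPC, and a small region 617 bp downstream that opened. That region held 1.71, 2.26 and 3.35 RPPM in nB, 8.80 and 8.90 in GCB and 7.54, 9.85 and 7.79 in BMPC. It rose by 1.55 ± 0.33 to GCB and 1.47 ± 0.30 to BMPC (adjusted p = 0.00046 and 0.00013), and was 1 of the 2 called cell cycle regions within 1000 bp of a start. For cyclin E1, the start stayed between 60.7 and 89.9 RPPM in all C libraries, whereas the region 2908 bp downstream rose from 6.33, 2.07 and 3.35 in nB and 7.92 and 4.22 in GCB to 16.4, 14.6 and 20.9 in BMPC (1.97 ± 0.27 from nB, adjusted p = 3.9e-07). A region 7657 bp upstream of Ccna2 fell by 1.19 on the log2 scale from nB to GCB (5.36, 3.58 and 4.09 to 0.88 and 1.87), a call lost when any 1 of 12 libraries was left out.

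Mitotic kinases and checkpoint genes gave 3 called regions of 15, none at a start. The start of Plk1, a kinase needed for spindle assembly, held 30.7, 22.4 and 30.9 RPPM in nB, 29.9 and 31.9 in GCB and 37.8, 32.1 and 34.4 in BMPC. Aurkb, the kinase of the chromosomal passenger complex, held 27.3, 27.9 and 29.2, then 27.3 and 22.0, then 25.2, 30.1 and 27.1. Cdc20, the activator of the anaphase-promoting complex, held 42.4, 41.1 and 38.7, then 42.7 and 54.3, then 48.1, 49.1 and 45.8. None of these 3 starts passed the test in any of the 3 comparisons. Regions around them did: 1575 bp upstream of Aurkb, RPPM fell from 17.8, 17.3 and 15.3 in nB to 5.72 and 6.09 in GCB (-1.36 ± 0.25, adjusted p = 8.4e-05), with 9.49, 13.0 and 11.4 in BMPC between them. Downstream of Bub1b, a spindle checkpoint gene, a region at 3670 bp rose from 1.46, 1.51 and 1.30 in nB to 5.72 and 4.68 in GCB and 6.89, 10.6 and 9.50 in BMPC (1.35 ± 0.29 and 2.03 ± 0.26, adjusted p = 0.00048 and 1.8e-07). The first of these calls was lost without the first C GCB library (1.23). A weak region 6962 bp upstream of Bub1b held at most 2.98 RPPM in any C library, and its call from nB to BMPC was lost without any of 5 libraries. At Plk4, which duplicates centrioles, a region 1021 bp upstream was higher in GCB (15.4 and 10.3) than in nB (4.39, 7.16 and 6.70), just under the fold limit at 0.97 ± 0.25.

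All 4 subunit genes of the anaphase-promoting complex had open starts, and limma called 0 of their 6 regions, with 4 lower in GCB than in nB and 4 higher in BMPC than in GCB at an unadjusted p under 0.05. Of all 66177 regions, 15885 were lower in GCB than in nB and 17555 higher in BMPC than in GCB at that p. All regions near starts had median log2 changes of -0.17 and 0.28 in these comparisons. Both edgeR tests and DESeq2 called 1 of the 6, from GCB to BMPC. Cdc16, Cdc23, Cdc26 and Cdc27 were each lower in GCB than in nB at an adjusted p of at most 0.01, by log2 changes of -0.71, -0.62, -0.41 and -0.39, and none of the 4 reached 2-fold. Scaled to the reads near starts, the falls of Cdc26 and Cdc27 were -0.22 and -0.20.

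Centromere genes gave 8 called regions of 24, and 7 of the 8 lay beyond 1000 bp. These 7 were a larger share of the few distant centromere regions than the 53.7% of all regions at that distance. Within 1000 bp 1 of 15 was called, beside 31.4% of all regions there. That 1 was the start of Cenpw, a protein of the inner kinetochore, which held 32.4, 42.6 and 36.8 RPPM in nB, 56.7 and 58.1 in GCB and 29.3, 28.3 and 26.3 in BMPC. GCB libraries lay above all others, and the fall to BMPC was 1.01 on the log2 scale (SE 0.15, adjusted p = 3.6e-06), at the limit of the fold. It passed under that limit without the third C BMPC library (-0.97) or the second C GCB library (-0.997) and in both edgeR tests and DESeq2. A region 9144 bp downstream, past the end of the transcript, followed another course: 25.8, 25.2 and 26.8 RPPM in nB, 3.96 and 4.22 in GCB and 0.65, 0.73 and 0.934 in BMPC. Its levels fell at each step without overlap, by -2.41 ± 0.31 from nB to GCB and -1.52 ± 0.31 from GCB to BMPC (adjusted p = 4.3e-07 and 0.00015). This region holds 6 copies of the letters GAGGAAGT in tandem repeats, printed below, in which reads can be hard to place. Cenpe, a kinesin that captures microtubules, kept its start (58.0, 59.5 and 56.9 in nB, 55.4, 54.7 and 53.9 in BMPC) and lost a region 5510 bp upstream, from 12.7, 13.9 and 13.4 in nB through 9.24 and 7.49 in GCB to 2.60, 2.92 and 3.74 in BMPC (-1.82 ± 0.23, adjusted p = 1.4e-07). Regions that rose to BMPC lay 8220 bp into Cenpm (5.36, 6.78 and 8.93 in nB to 23.3, 33.4 and 25.8), 5181 bp into Cenpl (1.46, 3.39 and 2.05 to 10.9, 13.5 and 12.9) and 9800 bp from the nearest Cenpi start on the X chromosome, where nB and BMPC also differed in sex and the call was lost without the first C nB library (1.11). From GCB to BMPC, a region 1494 bp upstream of Cenpu fell from 25.1 and 26.7 to 9.49, 8.21 and 11.4 RPPM (-1.34 ± 0.20, adjusted p = 3e-06). Another, 5521 bp into Cenpn, fell from 5.72 and 9.37 to 2.34, 2.74 and 3.27, a call lost without the second C GCB library (-0.84) or the first C BMPC library (-1.06).

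Mitotic kinesins gave 2 called regions of 16. Kif11, the motor that separates spindle poles, had 45.8, 48.2 and 47.3 RPPM at its start in nB, 31.7 and 37.5 in GCB and 50.6, 56.4 and 55.1 in BMPC, with GCB lowest. Kif20a, a motor of cytokinesis, shares its start with Brd8 and was lowest in GCB (56.7 and 42.2) beside nB (94.0, 78.2 and 77.2) and BMPC (91.4, 91.6 and 83.3), by -0.75 ± 0.15 from nB (adjusted p = 0.00019). Against that, a 191 bp region 5656 bp upstream, in a Brd8 intron, was high in GCB alone: 0.487, 0.754 and 1.49 RPPM in nB, 6.60 and 8.43 in GCB and 0.26, 0.182 and 0.156 in BMPC (2.18 ± 0.36 and -2.82 ± 0.36, adjusted p = 1.8e-05 and 2.3e-07). The BMPC values are under the floor. The other called region, 6402 bp into Kif15, rose from nB to BMPC by 1.07 ± 0.32 at levels of at most 3.47 RPPM, and the call was lost without any 1 of the 6 libraries compared.

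Other kinesins, most of them transporters of cargo along microtubules, gave 18 called regions of 40, beside 51.8% of all regions. Kif3b, a subunit of the kinesin of cilia and vesicle transport, kept a flat start (24.4, 19.6 and 22.1 RPPM in nB, 22.0 and 18.3 in GCB, 24.3, 25.5 and 24.9 in BMPC) while 3 regions within the gene opened. The region 9429 bp downstream of the start held 0.244, 0.565 and 0 RPPM in nB, 14.1 and 11.2 in GCB and 1.69, 1.82 and 1.87 in BMPC (nB to GCB 3.44 ± 0.33, adjusted p = 3.6e-09). That at 6958 bp opened in GCB and remained high in BMPC: 3.41, 3.01 and 3.91, then 22.0 and 23.0, then 20.7, 20.3 and 23.8. That at 877 bp rose from 2.19, 2.64 and 2.23 to 12.8 and 13.1 and returned to 3.38, 6.75 and 3.58. Kif13b, a transporter of membrane cargo, had 2 intronic regions of opposite kind, assigned to different starts of the gene. One, 3836 bp from its start, was high in GCB alone (0.487, 0.565 and 0.558 in nB, 15.4 and 14.99 in GCB, 0.91, 0.73 and 0.934 in BMPC, nB to GCB 3.40 ± 0.33, adjusted p = 5.4e-09). The other, at 4864 bp, was highest in BMPC (2.44, 0.565 and 1.67, then 4.84 and 3.28, then 16.4, 13.7 and 17.0, nB to BMPC 2.77 ± 0.33, adjusted p = 3.4e-08). Kif7, a regulator of hedgehog signals, rose at a region 829 bp upstream from 0.731, 0.754 and 1.12 in nB to 6.16 and 5.62 in GCB and 12.1, 10.8 and 11.8 in BMPC.

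**Figure D4:**
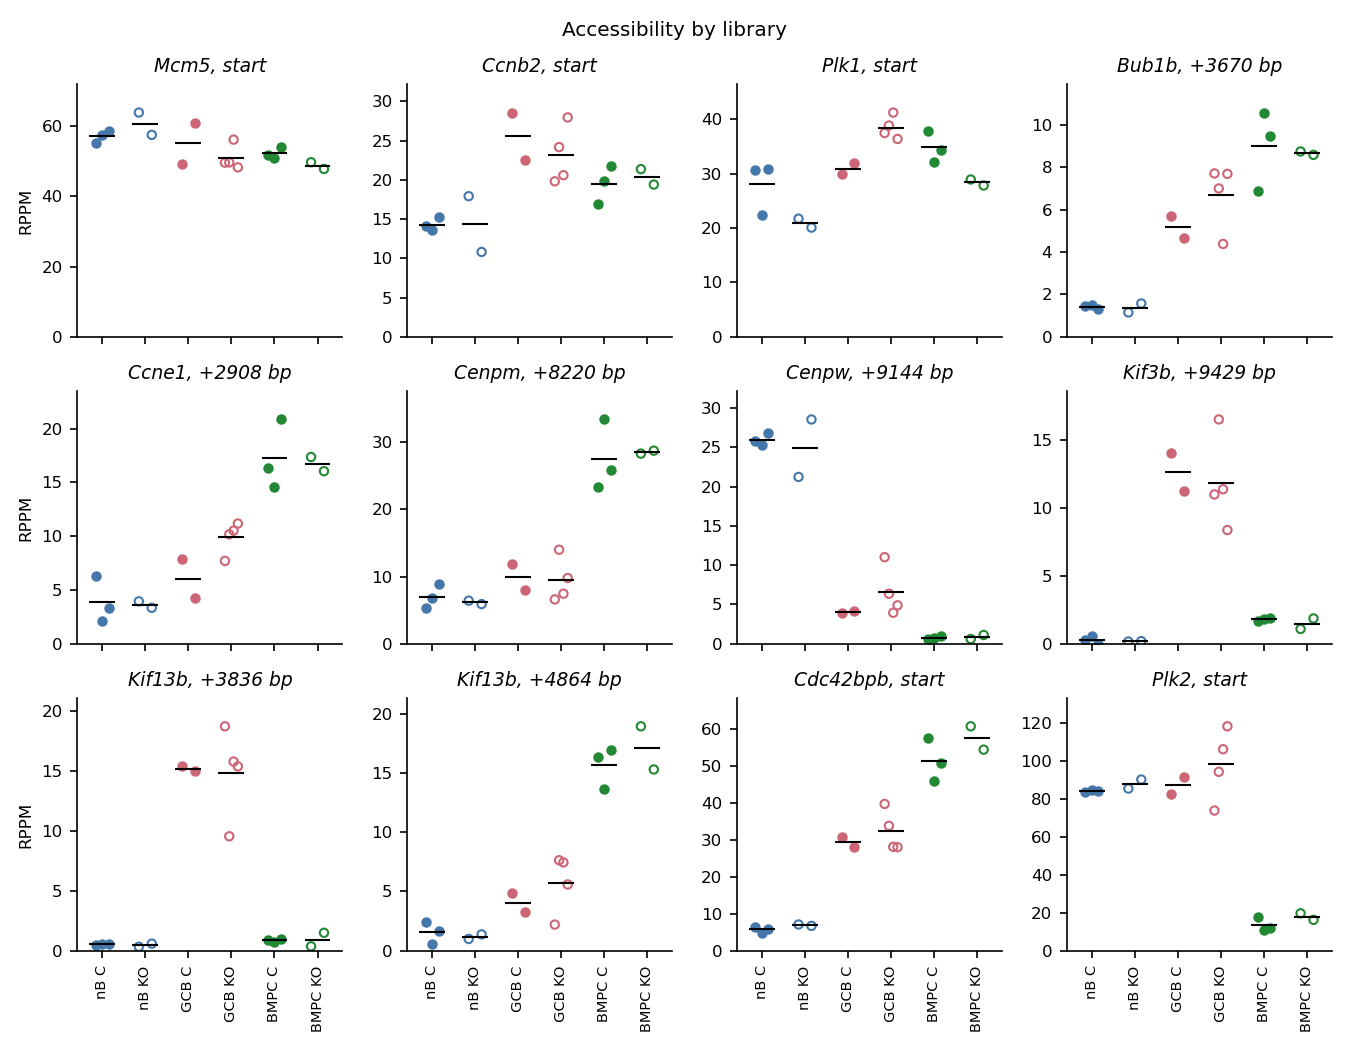
RPPM of single libraries (points) by cell type and genotype (filled for C, open for KO) at 12 member regions, with bars for the group means and the distance from the start in each panel title. The Mcm5 start lies at like heights in all groups, whereas Kif3b +9429 and Kif13b +3836 are high in GCB alone and Cenpw +9144 is high in nB alone.

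The middle 150 bases of 4 of these distant regions are printed as examples of regions that opened or closed in single cell types, chosen after their values were seen among regions without a transcribed exon in the window. All lie on the mm9 plus strand, and capitals mark an E box (CAGCTG or CAGGTG), the octamer (ATGCAAAT), a PU.1 site (GAGGAAGT) or an interferon response element on either strand.
Kif3b +9429, chr2:153126691-153126840, plus strand: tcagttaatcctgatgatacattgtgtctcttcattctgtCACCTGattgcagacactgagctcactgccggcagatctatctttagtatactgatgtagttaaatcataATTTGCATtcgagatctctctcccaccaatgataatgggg
Kif13b +3836, chr14:65387898-65388047, plus strand: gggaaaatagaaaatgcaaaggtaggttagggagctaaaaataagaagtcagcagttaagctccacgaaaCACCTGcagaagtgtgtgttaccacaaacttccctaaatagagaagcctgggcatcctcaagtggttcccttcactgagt
Kif13b +4864, chr14:65276519-65276668, plus strand: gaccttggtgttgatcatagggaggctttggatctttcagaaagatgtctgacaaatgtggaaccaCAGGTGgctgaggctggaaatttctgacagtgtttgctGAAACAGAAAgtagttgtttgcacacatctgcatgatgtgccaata
Cenpw +9144, chr10:29910625-29910774, plus strand: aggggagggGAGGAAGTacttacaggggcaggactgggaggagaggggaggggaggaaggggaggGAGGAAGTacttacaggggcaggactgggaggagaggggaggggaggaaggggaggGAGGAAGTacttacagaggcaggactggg

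The Kif3b window, open in GCB, held 1 E box and 1 octamer, and the octamer is found in 6.38% of all regions beyond 1000 bp. Over the 84 distant members, E boxes occurred in 58.3%, octamers in 4.76%, PU.1 letters in 8.33% and interferon response elements in 10.7%, beside 54.0%, 6.38%, 10.1% and 11.7% of all 51168 distant regions. The distant members were thus close to other distant regions by these letters.

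Of members that share only the name, 18 of 35 regions were called, beside 51.8% of all regions. Within 1000 bp 6 of 14 were, beside 31.4% of all regions there. Cdc42bpb, a kinase bound by Cdc42, opened at its start from 6.33, 4.90 and 5.96 RPPM in nB to 30.8 and 28.1 in GCB and 57.4, 45.8 and 50.8 in BMPC (2.18 ± 0.18 and 2.96 ± 0.16, adjusted p = 1.3e-10 and 7.4e-15). Plk2, a stress-induced relative of Plk1, was open in nB (83.6, 84.8 and 84.3) and GCB (82.7 and 91.3) and fell to 17.6, 10.9 and 12.1 in BMPC (-2.58 ± 0.15 from nB, adjusted p = 3.5e-14). Cdc42bpg was low in GCB alone, at 13.6 and 15.9 against 34.8, 41.6 and 39.5 in nB and 42.9, 49.8 and 44.5 in BMPC. The start of Cdc42 itself, a GTPase of the actin skeleton, ranged from 38.3 to 81.7 and was not called. In the 9 remaining genes (18 regions), 4 regions were called, 3 of them at the phosphatase gene Cdc14b, where the region 7475 bp from the start rose from 0.487, 0.565 and 0.372 in nB to 8.36 and 7.96 in GCB and 3.38, 4.20 and 4.52 in BMPC.

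Most differences between cell types had the same direction in KO mice. From nB to GCB, 33 members were called in KO (26.3% of all regions), and 25 of them were also called in C with the same sign, 75.8% of the KO calls and 71.4% of the 35 C calls. From nB to BMPC, 30 were called in KO (35.3% of all regions) and 25 were shared, 83.3% and 69.4%. From GCB to BMPC, 28 were called in each genotype (32.0% of all regions in KO) and 19 were shared, 67.9% of each. No member was called in opposite directions. The overlap of C and KO calls over all regions is not given here, so these shares are not read as particular to the members. Of the 28 C calls from GCB to BMPC, 27 had the same sign in KO, and the exception was the region 7203 bp into Cdc42bpb (-1.596 in C, 0.72 in KO). Some distant regions described above followed C in KO libraries. Kif3b +9429 held 0.165 and 0.197 RPPM in nB, 11.0, 16.5, 11.4 and 8.39 in GCB and 1.09 and 1.87 in BMPC. Cenpw +9144 held 21.2 and 28.5, then 11.0, 6.36, 3.95 and 4.89, then 0.607 and 1.12. Plk2 fell as in C, to 19.7 and 16.2 in KO BMPC. Others changed less in KO. Ccne1 +2908 rose by 1.41 from GCB to BMPC in C, whereas the highest change of any cyclin or Cdc25 region in KO was 0.71. From nB to GCB, Aurkb -1575 changed by -1.36 in C. The lowest value of any mitotic kinase or checkpoint region in KO was -0.91.

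Between KO and C no member was called in nB (0% of all regions), GCB (0.0317%) or BMPC (0.104%) by limma. At an unadjusted p under 0.05, 1 member was higher and 3 lower in KO nB, 8 and 11 in GCB, and 4 and 5 in BMPC. Over all regions the shares were 0.63% and 1.04% in nB, 7.45% and 4.34% in GCB, and 6.96% and 2.59% in BMPC. DESeq2 and the quasi-likelihood test of edgeR on recovered reads called 0 in nB and GCB and 1 in BMPC, and the likelihood ratio test of edgeR called 2 in BMPC. In BMPC these tests called 0.739%, 1.81% and 2.53% of all regions, many more than limma, so 1 or 2 of 184 members is near or under the background. No member differed in its genotype effect between cell types by the interaction terms of the same fit, where 5, 12 and 16 members had an unadjusted p under 0.05 for BMPC against nB, BMPC against GCB and GCB against nB. Of all 66177 regions, 2613 were higher and 857 lower at that p in the first term. In the second 3062 and 2447 were, and in the third 2744 and 1363. The counts of members are not read as particular to them. The 47 core genes stayed within log2 changes of -0.39 to 0.28 in nB, -0.44 to 0.31 in GCB and -0.77 to 0.58 in BMPC at their nearest regions. With 2 to 4 libraries a group, a failed test does not show that the genotypes are alike.

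The region nearest to a call lay 9373 bp into Cdc6 (mm9 chr11:98778839-98779906), in an intron and an exon of an alternative transcript. In BMPC it held 2.47, 5.29 and 3.27 RPPM in C and 15.8 and 16.2 in KO, without overlap, a log2 change of 1.91 ± 0.39 with a limma adjusted p of 0.0163. In nB the values were 5.60, 4.90 and 5.40 in C and 7.40 and 10.2 in KO (0.63 ± 0.39), and in GCB 1.32 and 1.87 in C and 1.10, 3.18, 2.63 and 7.69 in KO (0.66 ± 0.37). Its excess in BMPC over nB (interaction 1.28, unadjusted p = 0.0265, adjusted 0.848) and over GCB (1.25, 0.0266, adjusted 0.523) did not pass. The difference in BMPC was called when the first or the fourth KO GCB library was left out, which changes the shared spread but not the value, and with a pseudocount of 5 RPPM, the compared groups alone, DESeq2 or either edgeR test. The region has 20 CpG in 1068 bp. Meanwhile the start of Cdc6 was not called in any cell type between genotypes. The next smallest p-values in BMPC belonged to the start of the motor gene Kif5c, which held 12.9, 14.2 and 11.4 RPPM in C and 7.53 and 6.72 in KO (-0.76 ± 0.21, adjusted p = 0.0781), and to the region 7203 bp into Cdc42bpb, with 0.39, 0.365 and 0.623 against 1.21 and 4.29. In GCB the smallest belonged to a Cdc37 intron 2694 bp from the start, with 8.80 and 8.43 in C and 3.30, 4.46, 4.38 and 6.29 in KO (-0.80 ± 0.23, adjusted p = 0.144), to a region 9585 bp upstream of Cdc42ep4 (-0.91 ± 0.28) and to the start of Mcm7 (116 and 125 in C against 88.1, 101, 107 and 98.6 in KO, -0.29 ± 0.09, adjusted p = 0.206). In nB they belonged to the start of Plk1, with 30.7, 22.4 and 30.9 in C and 21.7 and 20.1 in KO (-0.39 ± 0.15), and to regions 904 bp upstream of Bub1 and 9162 bp into Cdc14a, all at an adjusted p of 1.

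**Figure D5:**
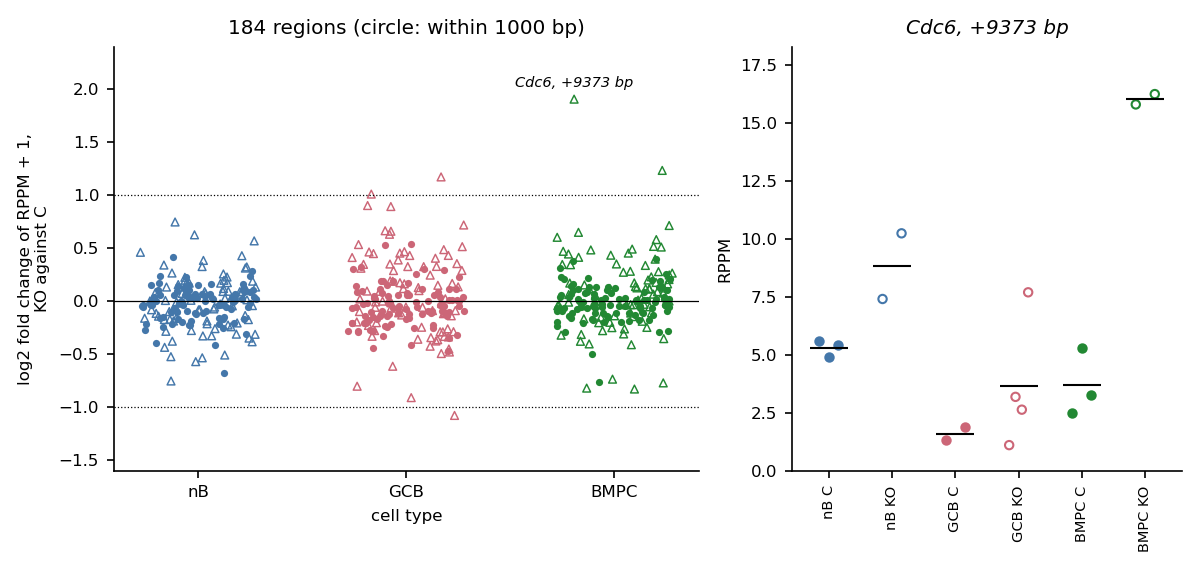
Left, log2 fold change of RPPM + 1 between KO and C for all 184 members in each cell type (circles within 1000 bp of the start, triangles beyond it). Right, RPPM of Cdc6 +9373 in single libraries, with bars for group means: both KO BMPC libraries stand at 15.8 and 16.2, above every other library.

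Genes of the same pathway outside the name rule were read from a list of 85, of which 78 had a region within 10000 bp of the start (156 regions, 90 of them within 1000 bp). From nB to GCB in C, 19 of the 156 rose and 1 fell (14.2% and 8.47% of all regions). In KO 20 rose and 9 fell (26.3% of all regions in either direction). From nB to BMPC in C 21 rose and 14 fell (18.0% and 20.1% of all regions). From GCB to BMPC 17 rose and 18 fell (11.3% and 19.1%). Between KO and C limma called 0 of 156 in each cell type. At an unadjusted p under 0.05 there were 1, 23 and 7 in nB, GCB and BMPC. Of all 66177 regions, 0.63% were higher and 1.04% lower in KO nB at that p. For GCB the shares were 7.45% and 4.34%, and for BMPC 6.96% and 2.59%. The pathway counts are not read as particular to these genes. Within 1000 bp of a start, 8 of 90 rose from nB to GCB in C, near the 9.06% of all regions there, and 0 fell, beside 6.90%. In KO 7 rose and 6 fell (10.8% and 6.95% of all regions there). Apart from the stronger Uhrf1 region, the regions named below are examples of rises, chosen by no stated rule. The regions that fell are not described. Uhrf1, which guides maintenance methylation, had a pair of regions at its starts. The weaker rose from a mean of 7.96 to 18.6 RPPM in C (1.13), while the stronger held 44.7 in nB and 34.7 in GCB (-0.39, limma adjusted p = 0.0606). The start of the thymidylate synthase gene Tyms rose from 5.02 to 13.6 (1.27), and that of the repressor gene E2f8 from 35.8 to 74.7 (1.05). A region 465 bp into Mybl2, which encodes a mitotic activator, rose from 3.23 to 16.8 (2.10), and a region upstream of the polymerase subunit gene Pole2 rose from 0.862 in nB to 9.43 in GCB and 26.0 in BMPC.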

How the data were processed

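Groups were the 6 combinations of cell type and genotype given by GEO's labels. Per the labels, the authors' processing used Bowtie 1.1.1, Picard 1.127, MACS2 2.1.0.20140616, edgeR 3.12.1 and the mouse build mm9, and the study's methods describe peaks called per sample and merged into 1 set of regions. The deposited RPM values (RPPM) are the authors' reads in each region per 1000000 reads in all regions of the library. Columns of the authors' own comparisons (log2 fold changes, p-values and FDR) and pooled group means were not used. Every value was a whole number of reads (tolerance 0.01 read, 100% of values), and these recovered reads gave depth and the tests on counts. No 2 libraries held identical values. Each library came from its own mouse or pool of 2 mice, so p-values measure the spread between these.

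One limma 3.58.1 fit (R 4.3.3) on log2(RPPM + 1) held 1 mean per group for all 16 libraries, with a variance trend and Benjamini-Hochberg adjustment over all 66177 regions. Fold changes are on that scale and understate those of low regions. The fit was also run on simulated counts with changes well above the limit on the fold, so that run cannot speak to calls near the limit. Calls required an adjusted p not above 0.01 together with a log2 change of 1 or more in either direction. Alternatives were other pseudocounts, filters, scalings and limits, single libraries left out, edgeR 4.0.16 and DESeq2 1.42.0 on recovered reads.

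Members and lists were chosen with earlier results of these data known. Named regions were the nearest of each of 56 core genes (47 had one), the 8 largest called rises and falls per comparison with groups apart, the 3 smallest p-values per genotype comparison and, chosen after values were seen, every called region of the cell cycle genes and the further regions of named genes. Of the 9 core genes without a member, 6 have their start region named for a neighbouring gene and 1 has it without a gene symbol. Of the members, 16 lie in promoters shared with another gene, and their reads cannot be split. Promoter and region letters were read from the mm9 genome, and RefSeq promoters (GRCm38.p6) matched 53 of 58 cell cycle genes and 38 of 46 others. Motifs other than CCAAT, CHR and E2F were added after the data were seen. The gene that drives Cre and 1 marker gene are not reported here. Figures used matplotlib 3.10.9.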

Additional observations from a re-analysis of the deposited data

Results flagged for a closer look

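Single libraries were set against the others in KO GCB, which alone had 4 libraries. Of 94 regions tested, 6 had 1 library far from the rest, and chance gives about 1 in 20. The region 5656 bp upstream of Kif20a stood at 9.79 RPPM in the fourth library against 4.82 to 5.51 in the others. The start of Cdc25c stood at 37.4 in the first library, the shallowest, against 23.2 to 24.8. A region 904 bp upstream of Bub1 stood at 11.8 in the third library against 6.99 to 7.71, and a region 6958 bp into Kif3b at 15.4 in the first against 19.7 to 20.3. A region 1494 bp upstream of Cenpu stood at 28.5 in the third library against 20.3 to 21.0, and a region 9800 bp into Cenpi at 5.51 in the first against 2.10 to 2.55.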

How the results depend on the processing

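The direction of 172 named values was the same under all settings in which each was run, and none reversed. Over settings other than left-out libraries, 1782 of 1898 kept their side of the limits or moved by less than the spread between replicates, 61 lost a call, 7 gained one and 48 moved. With single libraries left out, 2681 of 2752 were kept, 63 lost a call, 2 gained one and 6 moved. Counts were less stable. Members called from nB to GCB in C were 25 up and 10 down. A pseudocount of 5 RPPM gave 12 and 3, 0.1 RPPM gave 6 down, scaling to the reads near starts 5 down, DESeq2 6 down, no limit on the fold 34 down, and members within 1000 bp alone 8 and 2. Single libraries left out gave 5 to 12 down, lowest without the second C GCB library. From nB to BMPC, 23 up and 13 down became 13 and 5 with a pseudocount of 5, and 4 and 3 within 1000 bp. From GCB to BMPC, the 10 up became 6 with scaling to reads near starts, 16 with quantile normalization, 20 with either edgeR test, 45 without a fold limit and 2 within 1000 bp, and the 18 down became 7 with a pseudocount of 5 and 3 within 1000 bp. In KO, the 33, 30 and 28 members called became 14, 19 and 14 with a pseudocount of 5 and 11, 9 and 6 within 1000 bp. Without a fold limit nB to GCB gave 68 and GCB to BMPC 64, and the likelihood ratio test of edgeR gave 46 for nB to BMPC. Between KO and C in BMPC, 0 became 1 with a pseudocount of 5, the compared groups alone, the edgeR quasi-likelihood test, DESeq2 or an adjusted p of at most 0.05, 2 with the likelihood ratio test, and 0 to 1 with single libraries left out (1 without the first or the fourth KO GCB library). Cell cycle starts called between C cell types were 2, with 0 at a pseudocount of 5, 1 under TMM, 23 without a fold limit and 1 to 3 with libraries left out, and other members near starts were 13, with 5 and 28 at a pseudocount of 5 and no fold limit. A larger pseudocount shrinks the fold of low regions by construction, and the cause of the other shifts was not tested. Leaving out a C GCB library leaves 1, which is then assumed to vary like the other groups. The fit of compared groups only gives no interaction.

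Pools named F2 and M1 exist in C and in KO GCB, and deviations of same-named pools correlated at 0.038 and 0.068. The deviations of the 2 C libraries mirror each other, so these values cannot decide whether the pools are paired. The names were not taken as pairs. With a replicate block by pool name 0 members were called between KO and C in GCB, and 0 without the block on the same 4 pools. GCB had the fewest reads, so changes at levels under 3.30 RPPM were the least certain there.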
